A study of Mus musculus with 40 samples.

Results

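The nuclear genes for the proteins of the mitochondrial ribosome were followed through 4 RNA fractions of the forebrain of RBP4-TRAP and VGAT-TRAP mice. Members were chosen by symbol and count: protein-coding genes whose symbol starts with Mrpl or Mrps and a digit, with at least 10 counts in at least 5 of the 40 libraries. Of 41388 features in the tables, 77 symbols fitted the name, and 75 passed the count limit, 47 of them named Mrpl and 28 named Mrps. Mrpl53 and Mrps23 did not pass, with at most 3 and 2 counts in any library, while the members nearest to the limit were Mrps34, with at least 10 counts in 20 libraries and at most 41, and Mrpl23, with at least 10 in 26 libraries and at most 30. All 75 members passed the filter on low values in every comparison, and they lie on 17 chromosomes.

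Mitochondria carry their own ribosome, which makes the few proteins that mitochondrial DNA encodes, all of them core parts of the respiratory chain and of ATP synthase. Its rRNAs come from mitochondrial DNA, whereas every one of its proteins is encoded in the nucleus, translated on cytoplasmic ribosomes and imported. A tag on cytoplasmic ribosomes therefore sees the mRNAs of these proteins and not the work of the mitochondrial ribosome itself. In neurons mitochondria are carried far into axons and dendrites, where their proteins are turned over away from the nucleus.

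The mice were 21 d old and carried a Cre-dependent reporter that puts GFP on the cytoplasmic ribosomal protein L10a, crossed to Rbp4-Cre for RBP4-TRAP (layer 5 pyramidal neurons) or to Slc32a1-Cre for VGAT-TRAP (GABAergic neurons of any kind). Both arms of every comparison carried the reporter and a Cre, and no animal without tag was used here. For each line there were 5 replicates, each a pool of forebrains of both sexes, and each pool gave 4 libraries: whole-cell homogenate (WCH), ribosomes captured from it by the tag (TRAP), the synaptoneurosome fraction of a gradient (SNF), and ribosomes captured from SNF (SynapTRAP, ST). A replicate is therefore a pool and not an animal, and the spread given throughout is that between pools.

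Total counts ran from 14259535 to 22037703 a library, and from 8950847 to 21976631 once genes of the mitochondrial chromosome, of rRNA and of tRNA were set aside. Levels are given as cpm, the count of a gene scaled to a common total of these remaining counts, and no library was dropped or imputed in the main comparisons. The labels give the tissue as cortex, yet all 5 striatal markers (such as Drd1 and Adora2a) passed the test as higher in VGAT TRAP than in VGAT WCH. GABAergic markers went with the label of each line, since TRAP lay above WCH for 7 of 7 in VGAT and below it for 5 of 7 in RBP4. Of 6 glutamatergic and layer 5 markers 3 were higher and 1 was lower in RBP4 TRAP. The library labelled RBP4 ST 4 held 49.9 cpm of Slc32a1, the vesicular GABA transporter, a level within the VGAT ST range of 23.3 to 51.3 cpm, whereas its companions in RBP4 ST held 10.9 to 19.7 cpm. Its sum over the GABAergic markers went the other way, at 684 cpm. That lay within the RBP4 ST range of 561 to 1324 cpm and below the VGAT ST range of 1210 to 5116 cpm. RBP4 SNF, taken without the tag, already held 24.1 to 44.2 cpm of Slc32a1. Without RBP4 ST 4, 0 members were called by edgeR between ST and SNF in RBP4 and 0 between the lines in ST, as with it. The values without this library are given beside ST against TRAP and beside the difference between lines in the step from TRAP to ST. For the difference between lines in the step from SNF to ST, and for the local candidates, they are not given here.

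Mitoribosomal protein mRNAs differed in level from each other. Levels were divided by exon length to compare genes, but the libraries were primed at the 3′ end and the study's text describes a bias of reads towards that end, so that division by length is not neutral and the order holds for this scale. Per kilobase of exon, and over the 10 WCH libraries of both lines, Mrpl42 was the highest at 263 ± 77.9 cpm per kb (SD, n = 10), a large-subunit protein found only in mitochondria, from a gene at chr10:95480806-95501927 (GRCm38, minus strand). Mrpl41 followed at 121 ± 23.2 cpm per kb (chr2:24974117-24975098, minus strand) and Mrpl20, a counterpart of a bacterial assembly protein, at 99.7 ± 22.7 cpm per kb (chr4:155802878-155809975, plus strand). At the other end of the order stood Mrps34 at 0.347 ± 0.178 cpm per kb, Mrpl23 at 0.447 ± 0.176 cpm per kb and Mrps10 at 1.53 ± 0.221 cpm per kb. Length enters this order, with 666 exon bases for Mrpl42 and 8079 for Mrps10. Before division by length the means in WCH were 165 cpm in RBP4 and 186 cpm in VGAT for Mrpl42, 172 and 187 cpm for Mrps14 (3258 exon bases), and 11.8 and 12.9 cpm for Mrps10. The low value of Mrps34 has a limit, since 77.8% of its exon bases also belong to Mapk8ip3 or Nme3 and reads that fit more than 1 gene were not counted.

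The median member stood at 19.5 cpm per kb, with quartiles at 10.8 and 34.5 cpm per kb. Members named Mrpl had a median of 24.5 cpm per kb and members named Mrps one of 13.2 cpm per kb. In the order of levels, 5 of 74 neighbouring pairs were apart by more than the larger of their SDs: Mrpl42 over Mrpl41, Mrpl20 over Mrps18c, Mrps22 over Mrps35, Mrps35 over Mrps10 and Mrps10 over Mrpl23. Along the rest of the order neighbours did not differ beyond their spread.

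The order within a family depended on the scale for the Mrps18 genes. Mrps18a, Mrps18b and Mrps18c each encode a relative of the bacterial protein S18, and in the assembled ribosome the product of Mrps18a lies in the large subunit in spite of its symbol (as does that of Mrps30). In WCH the level of Mrps18c was 75.2 ± 21.4 cpm per kb, the 4th of 75, that of Mrps18a 21.2 ± 2.66 cpm per kb and that of Mrps18b 6.02 ± 1.27 cpm per kb. Their ranges in the 10 WCH libraries did not overlap, at 57.2 to 128 cpm per kb for Mrps18c, 17.1 to 25.6 cpm per kb for Mrps18a and 3.82 to 8.55 cpm per kb for Mrps18b. Their exon lengths are 1076, 3690 and 2089 bases, and before division by length the means of Mrps18c (83.9 cpm in RBP4 and 77.9 cpm in VGAT) and Mrps18a (70.4 and 85.8 cpm) changed places between the lines, with Mrps18b the lowest (13.5 and 11.6 cpm). Mrps18b shares 30.5% of its exon bases with the annotated gene Gm16279.

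Promoters are shown for these 3 genes, because they encode relatives of the same bacterial protein, and for Mrps12, Mrps11 and Mrpl17, on which results further on turn. Each window holds 250 bases before the transcription start and 50 after it, from RefSeq on GRCm38.p6, written 5′ to 3′ on the strand of the gene. Capitals mark matches to motifs of factors known for their part in the expression of nuclear genes for mitochondrial proteins, searched on both strands: GCGCATGC (nuclear respiratory factor NRF1), CCGGAAG (the ETS family, which includes GABP) and AAGATGGCG (YY1). The windows are chr17:46110754-46111053 (plus strand) for Mrps18a, chr17:35916391-35916690 (minus) for Mrps18b, chr5:100798509-100798808 (plus) for Mrps18c, chr7:28741772-28742071 (minus) for Mrps12, chr7:78782881-78783180 (plus) for Mrps11 and chr7:105811038-105811337 (minus) for Mrpl17.
Mrps18a: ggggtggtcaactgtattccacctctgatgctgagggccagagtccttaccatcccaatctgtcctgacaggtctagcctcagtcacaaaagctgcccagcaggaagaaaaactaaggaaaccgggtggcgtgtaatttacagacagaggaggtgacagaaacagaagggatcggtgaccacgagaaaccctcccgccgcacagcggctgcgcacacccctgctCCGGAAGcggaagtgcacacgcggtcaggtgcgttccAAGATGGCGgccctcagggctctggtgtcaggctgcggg
Mrps18b: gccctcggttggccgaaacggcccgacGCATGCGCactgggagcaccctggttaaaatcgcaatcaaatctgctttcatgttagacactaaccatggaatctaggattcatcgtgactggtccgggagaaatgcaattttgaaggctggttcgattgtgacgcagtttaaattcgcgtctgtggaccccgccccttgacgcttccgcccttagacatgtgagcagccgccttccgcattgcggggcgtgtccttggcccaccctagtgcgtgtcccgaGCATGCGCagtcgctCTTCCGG
Mrps18c: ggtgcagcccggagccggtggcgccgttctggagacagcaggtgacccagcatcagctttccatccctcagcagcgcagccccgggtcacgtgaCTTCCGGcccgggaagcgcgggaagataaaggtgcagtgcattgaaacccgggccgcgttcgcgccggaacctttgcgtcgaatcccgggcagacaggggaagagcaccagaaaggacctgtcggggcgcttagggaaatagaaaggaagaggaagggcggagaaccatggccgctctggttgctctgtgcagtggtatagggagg
Mrps12: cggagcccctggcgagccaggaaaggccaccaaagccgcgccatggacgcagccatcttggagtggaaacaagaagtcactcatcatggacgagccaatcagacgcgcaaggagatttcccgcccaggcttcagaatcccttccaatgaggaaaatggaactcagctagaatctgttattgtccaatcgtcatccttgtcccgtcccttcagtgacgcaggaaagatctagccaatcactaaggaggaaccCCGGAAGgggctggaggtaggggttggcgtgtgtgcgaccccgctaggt
Mrps11: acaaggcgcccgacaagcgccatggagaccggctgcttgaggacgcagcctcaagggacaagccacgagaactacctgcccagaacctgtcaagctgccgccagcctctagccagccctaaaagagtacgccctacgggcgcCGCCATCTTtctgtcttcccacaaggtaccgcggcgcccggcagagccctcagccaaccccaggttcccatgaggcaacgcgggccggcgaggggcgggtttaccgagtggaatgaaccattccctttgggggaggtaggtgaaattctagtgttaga
Mrpl17: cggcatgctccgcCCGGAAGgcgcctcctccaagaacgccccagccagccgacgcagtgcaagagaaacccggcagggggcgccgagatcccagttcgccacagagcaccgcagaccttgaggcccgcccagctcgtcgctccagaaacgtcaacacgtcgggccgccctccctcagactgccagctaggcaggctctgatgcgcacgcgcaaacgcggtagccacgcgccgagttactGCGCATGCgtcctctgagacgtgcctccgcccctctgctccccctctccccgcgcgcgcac

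With the start counted as 1 and no 0, the ETS match of Mrps18a begins at -26 and its YY1 match at 12, whereas Mrps18b has NRF1 matches at -223 and 29 and an ETS match at 44, and Mrps18c a single ETS match at -156. Mrps12 has an ETS match at 2, Mrps11 a YY1 match at -108, and Mrpl17 an NRF1 match at -11 and an ETS match at -237. So 6 genes for parts of the same particle do not share a common arrangement of these letters.

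Over all members, 66 of 75 had an entry among the promoter windows, 72 windows in all. The ETS motif was in a window of 23 of these 66 members (34.8%) against 13.5% of protein-coding genes with a window and 8.86% of all 32851 windows of the same length. For YY1 it was 8 of 66 (12.1%) against 2.26% of protein-coding genes and 1.403% of windows, and for NRF1 7 of 66 (10.6%) against 4.14% and 2.71%. At least 1 of the 3 motifs was found for 33 members, and the median GC content was 58.5% for members' windows and 52.7% for all. The protein-coding genes set beside the members were not limited to those tested, and they were not matched for GC content. A match is a description of letters, and no factor was measured here.

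Medians of members with and without a motif are given for the comparisons that follow, and their differences were not tested. From WCH to TRAP the median log2 change with and without an ETS match was 0.67 and 0.64 in RBP4 and 0.95 and 0.82 in VGAT. With and without a YY1 match it was 0.74 and 0.65 in RBP4 and 0.88 and 0.84 in VGAT, and for NRF1 it was 0.64 and 0.67, and 0.67 and 0.86. The median log2 change from TRAP to ST was -1.20 in the 23 members with an ETS match and -1.21 in the other 43 in RBP4, and -1.42 and -1.35 in VGAT. With and without a YY1 match the same medians were -1.11 and -1.22 in RBP4 and -1.43 and -1.39 in VGAT, and for NRF1 -1.05 and -1.23, and -1.34 and -1.41.

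Summed over the 75 members, mitoribosomal mRNA was most abundant in TRAP and least abundant in the fractions of the synaptoneurosome preparation. The sums in RBP4 WCH were 4352, 3227, 2937, 3890 and 3129 cpm in pools 1 to 5, and in RBP4 TRAP 5435, 6369, 5733, 5993 and 4601 cpm. In RBP4 SNF they were 2117, 2028, 2716, 2374 and 2648 cpm, and in RBP4 ST 2249, 2051, 2214, 2116 and 3516 cpm. In RBP4 every TRAP library was above every WCH library and every WCH library above every SNF library, while ST and SNF overlapped and ST 5 stood above the other ST libraries. VGAT gave 4510, 3729, 3380, 3741 and 3492 cpm in WCH, 7409, 7116, 6116, 7162 and 6439 cpm in TRAP, 2372, 2101, 2947, 2314 and 2353 cpm in SNF and 2352, 2336, 3008, 2610 and 2565 cpm in ST. The order of the fractions was the same as in RBP4, again with SNF and ST overlapping.

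**Figure D1:**
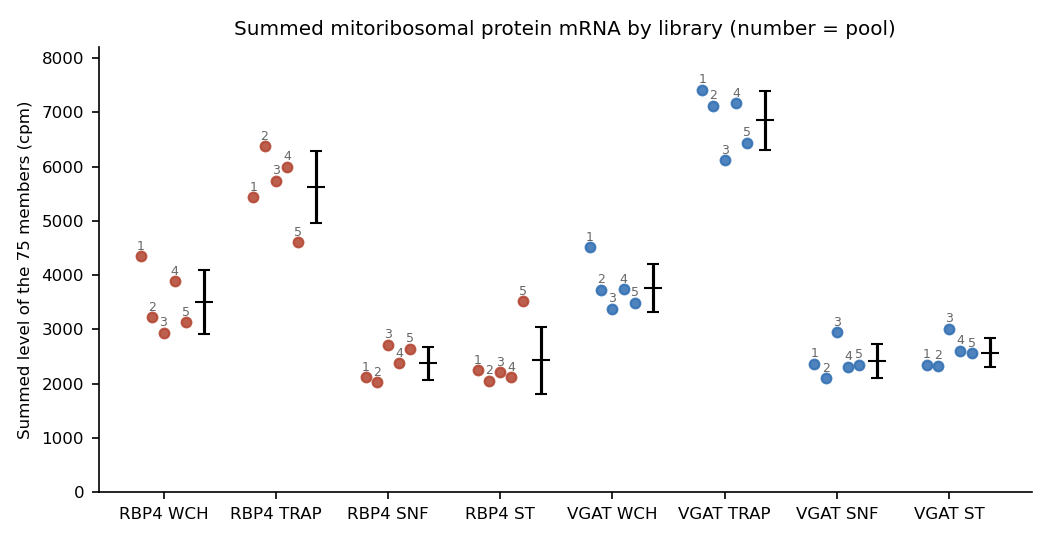
Summed level of the 75 mitoribosomal protein genes in cpm (vertical axis) in each of 40 libraries, by line and fraction; points carry the number of the pool and the bar beside them is the mean with its SD (n = 5). TRAP lies between 4601 and 7409 cpm, above every WCH library, and SNF and ST lie between 2028 and 3516 cpm.

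The sum of members named Mrpl was 2.36 ± 0.0916 times that of members named Mrps in RBP4 WCH (SD, n = 5) and 2.36 ± 0.0622 times in RBP4 TRAP. In VGAT the ratio was 2.33 ± 0.0339 in WCH and 2.30 ± 0.0434 in TRAP. In ST it was 2.26 ± 0.0815 in RBP4 and 2.15 ± 0.0965 in VGAT, and the difference from TRAP was not tested.

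The comparison of TRAP with WCH asked which mRNAs are on ribosomes of the tagged neurons beyond their share in the whole tissue. Mitoribosomal protein genes were higher in TRAP in both lines. In RBP4, 52 of 75 members were called higher (adjusted p at most 0.05) and 0 lower, where 8.37% of all 17043 genes tested were higher and 31.5% lower. In VGAT 71 of 75 members were called higher and 0 lower, where 21% of 16990 genes were higher and 41.8% lower. The median log2 change of the members was 0.67 in RBP4 and 0.85 in VGAT, while that of all genes tested was -0.34 and -0.31, so that the members stood 1.01 and 1.16 above the median gene. All 75 members lay above the median gene in both lines, and 51 were called higher in both. Every TRAP library lay above every WCH library for 35 members in RBP4 and for 62 in VGAT.

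Mrps12, which encodes the counterpart of the bacterial decoding-centre protein S12, was among the members that rose most in TRAP. Its levels in RBP4 were 26.5, 19.7, 19.4, 32.0 and 22.5 cpm in WCH and 52.5, 76.9, 71.2, 73.1 and 48.1 cpm in TRAP. VGAT held 32.5, 34.2, 27.2, 29.1 and 22.4 cpm in WCH and 100.4, 87.9, 77.9, 100.1 and 69.2 cpm in TRAP. No TRAP library fell within the range of WCH in either line, and the log2 change was 1.42 ± 0.20 (SE; adjusted p = 1.37e-05) in RBP4 and 1.58 ± 0.13 (adjusted p = 6.53e-09) in VGAT.

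Mrpl12 belongs with Mrpl10 and Mrpl11 to the stalk that calls in translation factors. Mrpl12 was at 22.2, 24.7, 25.4, 26.5 and 24.7 cpm in RBP4 WCH and at 59.1, 68.8, 69.7, 65.8 and 44.7 cpm in RBP4 TRAP, a log2 change of 1.32 ± 0.17 (adjusted p = 5e-06). In VGAT its means were 34.3 cpm in WCH and 91.6 cpm in TRAP, a log2 change of 1.42 ± 0.18. The other stalk genes rose less, Mrpl10 by 0.64 ± 0.14 in RBP4 and 0.67 ± 0.10 in VGAT on the log2 scale, and Mrpl11 by 0.83 ± 0.22 and 0.91 ± 0.11. All 3 passed the test in both lines.

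Among other members with a bacterial counterpart, Mrpl34 rose by 1.52 ± 0.20 in RBP4 and 1.56 ± 0.19 in VGAT (log2), from 9.64 to 13.8 cpm over the RBP4 WCH libraries to 20.7 to 42.5 cpm over RBP4 TRAP. Mrpl36 rose by 1.07 ± 0.18 and 0.95 ± 0.12, and Mrpl28 by 1.29 ± 0.17 and 0.98 ± 0.19. In VGAT Mrps11, a protein of the small subunit's platform, rose by 1.26 ± 0.11, Mrpl17, which lies near the exit of the peptide tunnel, by 1.14 ± 0.11, and Mrps35 by 1.33 ± 0.13.

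Mrpl24, another protein of the tunnel exit, was among the members without a call in either line, with Mrps27 (0.21, adjusted p = 0.377, and 0.02, adjusted p = 0.879) and Mrps18b. Its levels were 37.6, 43.5, 30.3, 38.6 and 30.7 cpm in RBP4 WCH against 26.9, 40.004, 34.0, 24.8 and 32.9 cpm in RBP4 TRAP, and the groups overlapped. The log2 change was -0.19 ± 0.18 in RBP4 (adjusted p = 0.413) and -0.11 ± 0.16 in VGAT (adjusted p = 0.541), the lowest value of the 75 in each line, and its sign turned under another scaling (0.11 and 0.14 with TMM). Mrpl24 shares 26.3% of its exon bases with Rrnad1, and reads of shared bases were not counted. Of the 7 listed proteins of the tunnel exit, 3 were called higher in RBP4 and 6 in VGAT, and of the 6 of the central protuberance, 5 and 6.

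**Figure D2:**
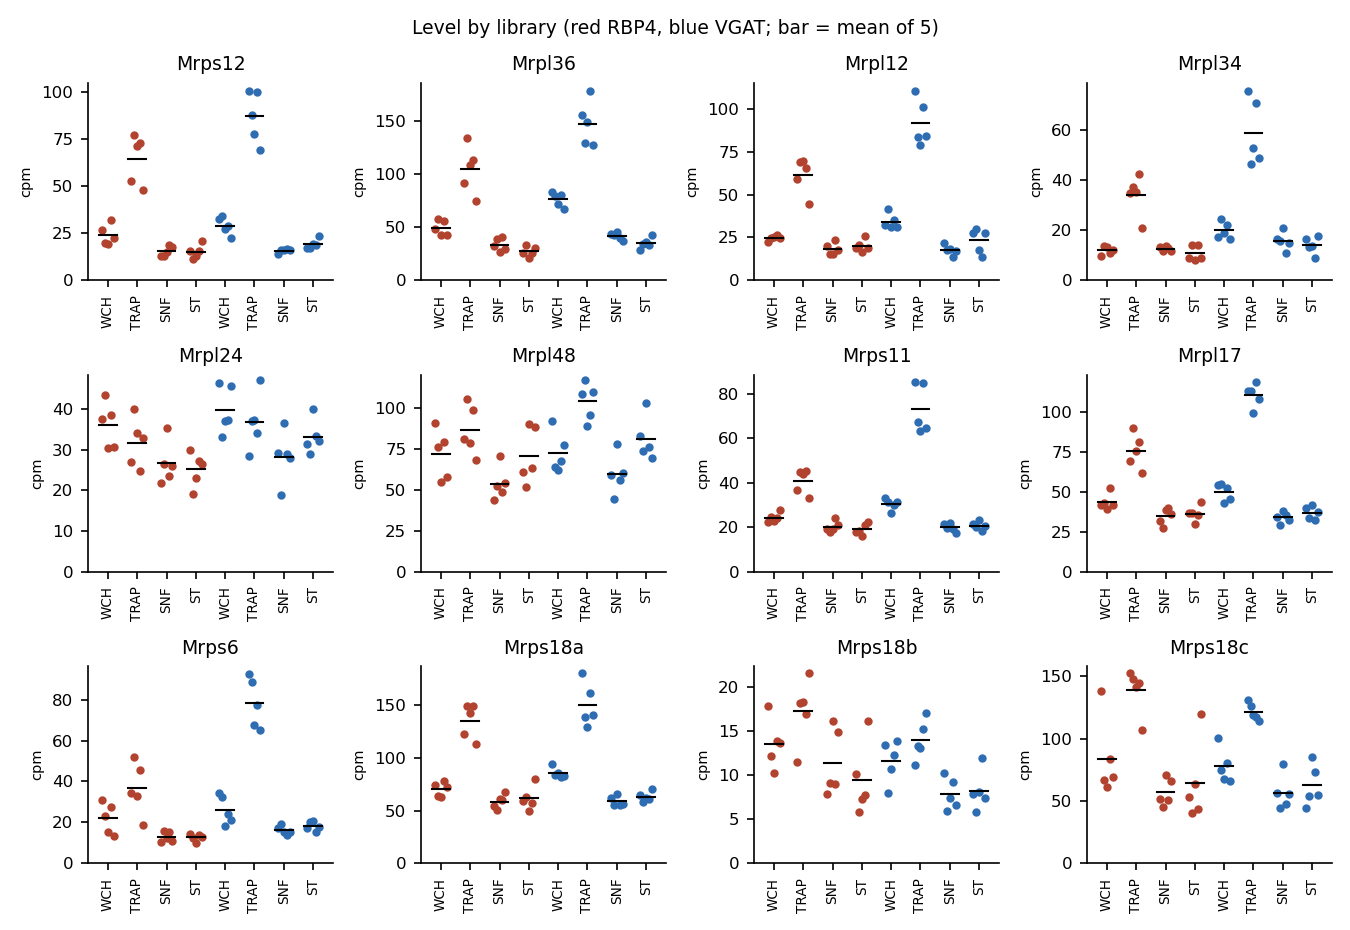
Level in cpm (vertical axes, from 0) of 12 members in each of 40 libraries, by fraction, with RBP4 in red and VGAT in blue; a black bar is the mean of 5 pools. Mrps12, Mrpl36, Mrpl12 and Mrpl34 stand high in TRAP and low in SNF and ST, whereas Mrpl24 and Mrpl48 overlap between fractions.

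Named by subunit, 37 of 47 Mrpl genes were called higher in RBP4 TRAP and 45 in VGAT TRAP, and 15 and 26 of 28 Mrps genes. Of 47 members with a bacterial counterpart 34 and 44 were called higher, and of 28 members found only in mitochondria 18 and 27. The medians of these lists were between 0.65 and 0.68 in RBP4 and between 0.84 and 0.88 in VGAT (log2), that is, within 0.05 of each other in each line.

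In the Mrps18 family Mrps18a rose by 0.94 ± 0.15 in RBP4 and 0.81 ± 0.10 in VGAT (log2), and Mrps18c by 0.73 ± 0.26 and 0.64 ± 0.17. The change of Mrps18b, at 0.36 ± 0.26 (adjusted p = 0.288) and 0.26 ± 0.19 (adjusted p = 0.244), did not pass. Mrpl58, a peptide release factor that became a part of the ribosome, rose by 0.89 ± 0.15 and 0.59 ± 0.11. Mrps36, whose product is also known as a part of the 2-oxoglutarate dehydrogenase complex, was at 0.37 ± 0.24 (adjusted p = 0.229) in RBP4 and rose by 1.07 ± 0.26 in VGAT.

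Of 5 mitoribosomal proteins whose symbols the name did not take, Aurkaip1 rose in both lines (1.04 ± 0.19 and 1.18 ± 0.15). Chchd1 and Gadd45gip1 were at 0.63 and 0.58 in RBP4 (adjusted p = 0.0610 and 0.0822) and rose by 1.24 and 1.25 in VGAT, and Dap3 was at 0.25 (adjusted p = 0.273) and rose by 0.57. Ptcd3, an RNA-binding protein of the small subunit, was at -0.33 in RBP4 (adjusted p = 0.211) and fell by 0.48 in VGAT (adjusted p = 0.0232), against the direction of the 75 members.

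Scaling changed these counts, and glial markers moved with the comparison. With TMM factors 72 members in RBP4 and 74 in VGAT were called higher, the median gene was at -0.05 and -0.06, and the members stood 1.02 and 1.16 above it; the calls among all genes were then 19.3% higher and 22.4% lower in RBP4, and 29.4% and 32.5% in VGAT. Of 24 markers of astrocytes, oligodendrocytes, microglia and endothelial cells, TRAP lay below WCH for 20 in RBP4 and for 23 in VGAT, with a summed level of 8930 to 15020 cpm in WCH and 626 to 7189 cpm in TRAP. The defining endothelial markers Tek and Cdh5 were at 0 in 1 or 2 TRAP libraries of each line, and no other marker of the 24 was at 0 in any library. RBP4 TRAP 5 held the 7189 cpm and was the lowest RBP4 TRAP library for 51 of 75 members. The part of glial RNA in the difference between TRAP and WCH was not tested, and in bulk samples fewer cells of a type and less RNA per cell cannot be told apart. Without RBP4 pool 2 the number of members called higher in RBP4 was 33, and the share of all genes called in that fit is not given here.

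SNF was compared with WCH to ask which mRNAs are kept or lost when synaptoneurosomes are prepared. Mitoribosomal protein genes were lower in SNF, but hardly more so than the median gene. In RBP4, 49 of 75 members were called lower and 0 higher, where 36.1% of all genes were lower and 13.4% higher. In VGAT it was 64 lower and 0 higher, where 45.2% of all genes were lower and 19.3% higher. Their median log2 change was -0.62 in RBP4 and -0.73 in VGAT, against -0.50 and -0.52 for all genes, so that the members stood 0.12 and 0.21 below the median gene. All 49 members called in RBP4 were also called in VGAT.

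These counts turned on the scaling. With TMM factors 11 members were called lower and 2 higher in RBP4 and 36 lower in VGAT, with 17.9% of all genes lower and 19.3% higher in RBP4 and 27.9% and 24.6% in VGAT. The distance of the members from the median gene stayed at -0.11 and -0.20. Leaving out RBP4 pool 1 brought the members called lower in RBP4 to 27, and the share of all genes called in that fit is not given here.

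Mrps22, a small-subunit protein found only in mitochondria, was at 23.5, 16.1, 15.1, 20.0 and 14.3 cpm in RBP4 WCH and at 6.84, 5.55, 5.96, 9.54 and 10.8 cpm in RBP4 SNF. No SNF library reached the WCH range, and the log2 change was -1.20 ± 0.23 (adjusted p = 0.000383) in RBP4 and -0.95 ± 0.16 in VGAT. Mrps2, which in bacteria is among the last proteins to join the small subunit, fell by 1.01 ± 0.18 and 0.96 ± 0.16, Mrps17 by 0.94 ± 0.22 and 1.14 ± 0.12, and Mrpl49 by 1.01 ± 0.22 and 1.09 ± 0.12. In RBP4 26 members were not called, and 4 of them had a value above 0: Mrpl52 at 0.32 ± 0.18 (adjusted p = 0.14), Mrpl54 at 0.29 ± 0.19 (adjusted p = 0.208), Mrpl34 at 0.084 ± 0.20 (adjusted p = 0.744) and Mrpl23 at 0.0099 ± 0.47 (adjusted p = 0.988). With TMM Mrpl52 and Mrpl54 were called higher (0.67 and 0.64).

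The share of counts from the mitochondrial chromosome moved the other way. It was 11.2% to 41.9% in SNF against 2.01% to 10.004% in WCH, and at most 0.511% in TRAP. These counts hold the rRNAs of the mitochondrial ribosome and the mRNAs that it reads, and they were left out of the totals. When they were kept in, the members called lower in SNF were 64 in RBP4 and 74 in VGAT. That setting enlarges the totals of SNF more than those of WCH, and so lowers the cpm of all other genes in SNF. The share of all genes called under it is not given here, so these counts are not a result about the members alone. Glial markers were also higher in SNF than in WCH, 15 of 24 in RBP4 and 20 of 24 in VGAT, with sums of 23276 to 42789 cpm, and their part in the difference was not tested.

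ST against SNF compares RNA captured by the tag with all RNA of the same preparation. Mitoribosomal genes differed little here. In RBP4, 0 of 75 members were called by the edgeR quasi-likelihood test, where 5.64% of all genes were higher and 5.46% lower. At an unadjusted p under 0.05, 4 members were higher and 2 lower, DESeq2 called 2 and the fit with the pool as a block 2. The percentages are at the adjusted threshold of the first test, and the share of all genes behind the other counts is not given here. The median change was 0.01 on the log2 scale, against -0.05 for all genes. Oligodendrocyte marker sums had means of 15764 cpm in SNF and 36847 cpm in ST in RBP4, and 16304 and 42532 cpm in VGAT. Astrocyte means were lower in ST, at 13571 and 10714 cpm in RBP4 and 13039 and 10979 cpm in VGAT. Microglial means were also lower in ST, and endothelial means higher. The part of these markers in the comparison was not tested.

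In VGAT, 8 members were called higher and 1 lower, where 16.3% of all genes were higher and 11.2% lower, so that the share of members was at or under that of all genes. The largest changes with a call were those of Mrps26, a protein found only in mitochondria, and of Mrps30. Mrps26 was at 16.2, 12.6, 12.6, 10.3 and 14.3 cpm in SNF and at 21.9, 22.3, 22.1, 21.9 and 20.8 cpm in ST, with no overlap (log2 change 0.72 ± 0.16, adjusted p = 0.00123). Mrps30 was at 10.5, 11.1, 14.7, 10.8 and 10.5 cpm in SNF and 19.3, 19.2, 20.8, 15.02 and 13.1 cpm in ST, where ST 5 lay within the range of SNF (0.61 ± 0.15, adjusted p = 0.00424). Mrps30 shares 37.8% of its exon bases with the annotated gene B430218F22Rik. Mrpl37, Mrps7, Mrpl38, Mrpl48, Mrps31 and Mrpl28 were higher by 0.37 to 0.51.

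Mrpl50, a large-subunit protein found only in mitochondria, was the member called lower. In VGAT its levels were 55.2, 53.0, 71.8, 47.5 and 60.7 cpm in SNF and 27.7, 32.9, 45.4, 51.5 and 46.4 cpm in ST, overlapping in ST 4, with a log2 change of -0.50 ± 0.15 (adjusted p = 0.0146). With TMM factors the calls in VGAT were 2 higher and 3 lower, and with mitochondrial and rRNA genes kept in 39 higher and 0 lower. Neither the count nor its balance was stable. Keeping these genes in enlarges the totals of SNF more than those of ST, and so raises all other genes in ST against SNF. Without VGAT pool 1 the calls fell to 5 and without VGAT pool 2 to 3. The shares of all genes called under these settings are not given here, so the counts are not a result about the members alone.

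ST against TRAP sets RNA captured by the tag from the synaptoneurosome preparation beside that captured from the whole-cell homogenate. Here the mitoribosomal genes moved furthest, and downwards. In RBP4, 72 of 75 members were called lower in ST and 0 higher, where 29.1% of all genes were lower and 26% higher. In VGAT 74 of 75 were called lower and 0 higher, where 34% of all genes were lower and 37.5% higher. The median log2 change was -1.19 in RBP4 and -1.38 in VGAT, against -0.07 and 0.08 for all genes. None of the 75 members lay above the median gene in either line, and 72 were called lower in both. The same TRAP libraries stand behind this comparison and the one with WCH, so that the pair is not independent. Every ST library lay below every TRAP library for 62 members in RBP4 and 71 in VGAT.

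**Figure D3:**
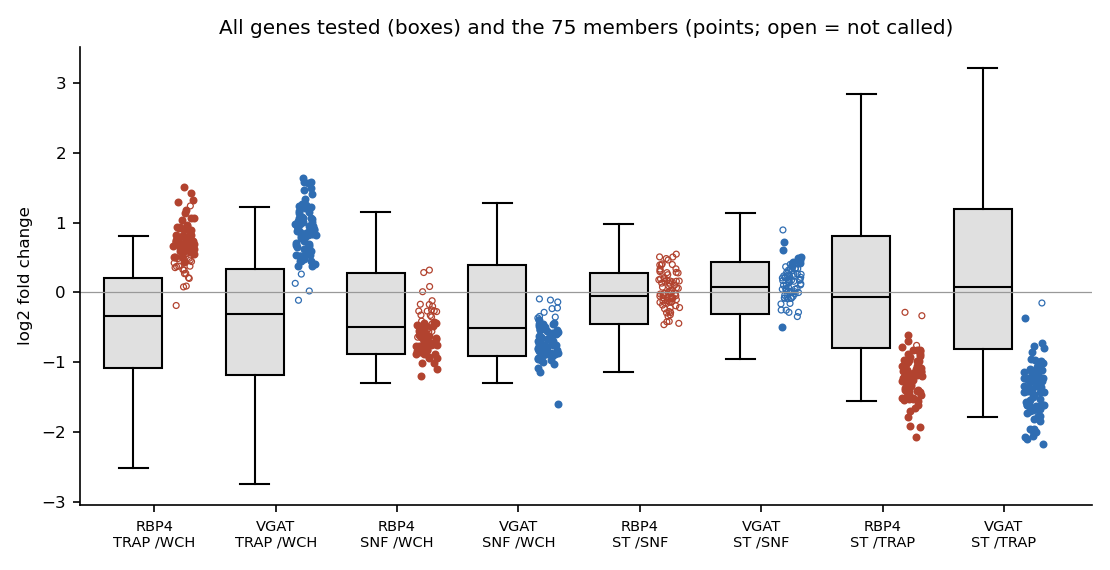
Log2 fold change (vertical axis) in 4 comparisons within each line: grey boxes give all genes tested (median, quartiles, whiskers at the 5th and 95th percentile) and points the 75 members, filled where the adjusted p was at most 0.05. The members' points lie above the box median in TRAP against WCH and below it in ST against TRAP.

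Mrps12 fell most among the named members. Against the TRAP values given above, it was at 15.3, 11.4, 12.7, 15.8 and 21.1 cpm in RBP4 ST and at 17.2, 17.0, 19.3, 18.9 and 23.7 cpm in VGAT ST, and no ST library came near the TRAP range. ST thus held 0.237 times the TRAP level in RBP4 and 0.221 times in VGAT (log2 change -2.08 ± 0.20, adjusted p = 1e-07, and -2.18 ± 0.14, adjusted p = 3.05e-11).

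Mrpl36, the smallest protein of the bacterial large subunit, gave a like picture. Its RBP4 levels were 91.5, 134, 108, 113 and 74.3 cpm in TRAP and 25.7, 33.4, 21.3, 26.0 and 30.1 cpm in ST (-1.93 ± 0.18). VGAT held 155, 129, 149, 178 and 127 cpm in TRAP and 28.9, 33.9, 35.7, 33.02 and 42.7 cpm in ST (-2.08 ± 0.12). Neither line had an ST library within reach of TRAP.

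Among the stalk genes Mrpl12 fell by 1.61 ± 0.17 in RBP4 and 1.97 ± 0.18 in VGAT, Mrpl11 by 1.37 ± 0.22 and 1.46 ± 0.11, and Mrpl10 by 1.13 ± 0.14 and 1.34 ± 0.10, all on the log2 scale and all called. Mrpl34 fell by 1.65 ± 0.20 and 2.07 ± 0.19, Mrpl49 by 1.78 ± 0.22 and 1.85 ± 0.12, and Mrps6, a platform protein, by 1.54 ± 0.25 and 2.11 ± 0.17. In VGAT Mrps11 fell by 1.82 ± 0.12 and Mrpl18, of the central protuberance, by 1.96 ± 0.13. Mrpl58 fell by 1.47 ± 0.15 and 1.38 ± 0.11, and Mrps36 by 1.34 ± 0.25 and 1.29 ± 0.26.

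All of the Mrps18 genes were lower in ST. Mrps18a was at 122, 149, 143, 149 and 113 cpm in RBP4 TRAP and 59.0, 62.9, 49.3, 57.6 and 80.2 cpm in RBP4 ST, without overlap (-1.13 ± 0.15). Mrps18b, at 11.4, 18.2, 18.3, 17.0 and 21.6 cpm in TRAP and 10.1, 5.79, 7.30, 7.69 and 16.2 cpm in ST, overlapped and was lower by 0.88 ± 0.27 (adjusted p = 0.00725). Mrps18c fell by 1.11 ± 0.26 in RBP4 and by 0.96 ± 0.17 in VGAT, and RBP4 ST 5, at 119.9 cpm, stood above the rest of its group (40.1 to 63.8 cpm).

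The members without a call were few. In RBP4 they were Mrpl23 (-0.76 ± 0.46, adjusted p = 0.165), which had few counts, Mrpl24 (-0.33 ± 0.18, adjusted p = 0.117) and Mrpl48 (-0.29 ± 0.19, adjusted p = 0.214). In VGAT it was Mrpl24 (-0.15 ± 0.16, adjusted p = 0.391), while Mrpl48, a central protuberance protein, was lower by 0.36 ± 0.15 (adjusted p = 0.0303). Mrpl48 shares 11.6% of its exon bases with Rab6a, a gene for a vesicle transport protein.

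Leaving out the 7 members that share over 20% of their exon bases with other genes, 66 of 68 were called lower in RBP4 and 68 of 68 in VGAT, and in TRAP against WCH 49 and 67 of 68 were called higher. Without the library labelled RBP4 ST 4, 72 members were called lower in RBP4 with a median of -1.17, and without RBP4 ST 5 also 72, with a median of -1.30. All 24 glial and endothelial markers were higher in ST than in TRAP in both lines, with a summed level of 35650 to 62341 cpm in ST, of which oligodendrocyte markers made 31796 to 54690 cpm. Their part in the lower cpm of the members was not tested. The share of counts from the mitochondrial chromosome was 2.71% to 19.0% in ST. The 5 proteins with other symbols were lower in ST in both lines, too, Aurkaip1 by 0.97 ± 0.19 and 1.22 ± 0.15.

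The fold changes of a member were alike in the lines. Across the 75 members, which share libraries and depth, Pearson's r between RBP4 and VGAT was 0.84 (Spearman's rho 0.81) for the step from TRAP to ST and 0.72 (0.69) for that from WCH to TRAP. It was 0.61 (0.63) from WCH to SNF and 0.54 (0.60) from SNF to ST. The lines have no library in common. The sign was the same in both lines for 75 of 75 members from TRAP to ST and from WCH to TRAP, for 71 from WCH to SNF and for 53 from SNF to ST.

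**Figure D4:**
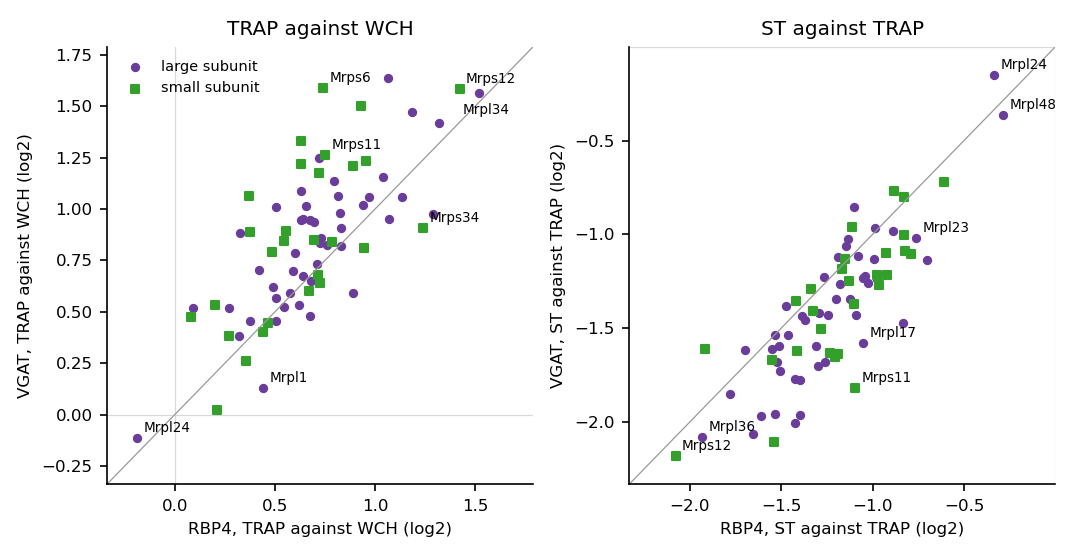
Log2 fold change of each of the 75 members in RBP4 (horizontal axis) and VGAT (vertical axis), for TRAP against WCH (left) and ST against TRAP (right); circles are genes named Mrpl and squares genes named Mrps, and the grey line marks equal values. Mrps12 lies at the low end on the right (-2.08 and -2.18), Mrpl24 near 0 in both panels, and Mrps11 below the line on the right (-1.10 and -1.82).

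Exon length went with the change of the members. The exon length of the members had a median of 1848 bases (412 to 8079) against 3477 for all genes tested. Spearman's rho between length and log2 change across the 75 members was -0.49 in RBP4 and -0.54 in VGAT for TRAP against WCH, and 0.30 and 0.38 for ST against TRAP. Over all genes tested the values were -0.25 and -0.22, and 0.25 and 0.21, of the same sign as for the members. For SNF against WCH the members gave -0.29 and -0.30 and all genes 0.015 and 0.020. These correlations are descriptions over genes that share libraries.

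Between lines, whole tissue gave no call. In WCH 0 of 75 members differed between RBP4 and VGAT by edgeR, where 0.0118% of all genes were called, and 0 by DESeq2. At an unadjusted p under 0.05, 9 members were lower in RBP4. The share of all genes at that looser threshold is not given here, so the 9 are not set against it. The smallest p belonged to Mrpl36 (-0.62 ± 0.15, adjusted p = 0.83) and Mrpl34 (-0.74 ± 0.21, adjusted p = 0.9999). Mrpl36 was at 48.7, 57.4, 42.7, 56.2 and 43.0 cpm in RBP4 WCH and at 83.4, 78.8, 71.8, 80.2 and 66.9 cpm in VGAT WCH, without overlap, although the adjusted p did not pass.

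In TRAP, mitoribosomal genes were lower in RBP4 than in VGAT or did not pass. Of 75 members 19 were called lower and 0 higher, where 15.1% of all genes were lower and 12.9% higher. The median was -0.24 (log2) against -0.01 for all genes. Mrps11 was at 36.9, 45.0, 44.1, 45.3 and 33.3 cpm in RBP4 TRAP and at 85.1, 67.2, 63.4, 84.6 and 64.5 cpm in VGAT TRAP, far apart (-0.83 ± 0.13, adjusted p = 4.68e-06). Mrpl52 was lower by 1.01 ± 0.16 (adjusted p = 1.13e-05), from 47.1 to 67.9 cpm over VGAT TRAP to 22.8 to 32.7 cpm over RBP4 TRAP. Mrps6 was lower by 1.09 ± 0.23 (adjusted p = 0.000407) and Mrpl18 by 0.72 ± 0.16 (adjusted p = 0.000826).

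Others of the 19 were Mrpl17 (-0.55 ± 0.12), Mrpl12 (-0.57 ± 0.17), Mrpl34 (-0.79 ± 0.20), Mrpl36 (-0.50 ± 0.15) and Mrps36 (-0.81 ± 0.26). Some of these values had a like size in WCH, at -0.47 ± 0.17 for Mrpl12, -0.74 ± 0.21 for Mrpl34 and -0.62 ± 0.15 for Mrpl36 (adjusted p = 0.9999, 0.9999 and 0.83), whereas Mrpl17 and Mrps36 were at -0.20 ± 0.12 and -0.11 ± 0.27 there. The difference of the steps from WCH to TRAP was called for none of the 19. On the other side Mrpl1, of the L1 stalk, was at 0.39 ± 0.16 (adjusted p = 0.0675), and it was called higher with TMM (0.45). Without pool 5 of RBP4, whose TRAP library held the most glial marker counts, 16 members were called lower. The share of all genes called in that fit is not given here.

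In SNF and ST no member was called between the lines by edgeR or DESeq2. For ST 0 of 75 members were called by edgeR, where 0.325% of all genes were, 0 by DESeq2, and 7 were lower in RBP4 at an unadjusted p under 0.05, Mrps36 (-0.86 ± 0.28, adjusted p = 0.21) and Mrpl24 (-0.40 ± 0.16, adjusted p = 0.33) with the smallest p. For SNF 0 were called by edgeR or DESeq2, where 0.0178% of all genes were, with 4 higher and 3 lower at an unadjusted p under 0.05. The percentages for ST and SNF are at the adjusted threshold, and the share of all genes at the unadjusted threshold is not given here. GABAergic marker sums were 561 to 1324 cpm in RBP4 ST and 1210 to 5116 cpm in VGAT ST, and overlapped. VGAT ST 1 and 2, at 1210 and 1377 cpm, lay below the VGAT SNF range of 1398 to 2359 cpm. VGAT ST 3 to 5, at 2499 to 5116 cpm, lay above it. Mean glutamatergic and layer 5 sums were 1084 cpm in RBP4 ST, 1001 cpm in RBP4 SNF and 812 cpm in VGAT ST. What this means for the lack of calls in ST was not tested.

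Whether the step from TRAP to ST differs between the lines was tested as an interaction. It was called for 2 of 75 members, where 10.8% of all genes were called in either direction. Mrps11 fell by 1.10 ± 0.15 in RBP4 and by 1.82 ± 0.12 in VGAT, a difference of 0.72 ± 0.18 (adjusted p = 0.00616). Its ST libraries were close between lines, at 16.3 to 22.2 cpm in RBP4 and 18.1 to 23.3 cpm in VGAT, and its TRAP libraries were those that differed. Mrpl17 fell by 1.05 ± 0.16 and 1.58 ± 0.11, a difference of 0.53 ± 0.17 (adjusted p = 0.0486), from 61.6 to 89.6 cpm in RBP4 TRAP and 99.2 to 119 cpm in VGAT TRAP to 29.6 to 43.7 and 32.7 to 41.4 cpm in ST. The call of Mrpl17 was lost without RBP4 ST 5 (adjusted p = 0.0886) and without RBP4 ST 4 (adjusted p = 0.0509), and also without RBP4 pool 1 or 5 or VGAT pool 1, 2, 4 or 5 (adjusted p from 0.0863 to 0.165). Mrps11 was called in all of the alternatives run, with adjusted p from 0.000187 to 0.0421. None of these alternatives blocked the pools of each line separately, so a fit of this difference paired by pool was not tested.

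The step from WCH to TRAP gave 0 calls for the difference between lines by edgeR and by DESeq2, where 12.6% of all genes were called, and 7 members were lower in RBP4 at an unadjusted p under 0.05. Mrps11 (-0.51 ± 0.18, adjusted p = 0.0542) and Mrps6 (-0.85 ± 0.32, adjusted p = 0.0823) came nearest, and without RBP4 pool 5 Mrps6 was called (adjusted p = 0.0486). The step from SNF to ST gave 0 calls by edgeR and DESeq2, where 0% of all genes were called, and 1 member at an unadjusted p under 0.05. The TRAP libraries enter both of the interactions that involve TRAP.

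The study sorted genes into local translation candidates (higher in SNF than WCH and in ST than SNF) and somatic candidates (higher in TRAP than WCH and lower in SNF than WCH). The same intersections were taken here at an unadjusted p under 0.05, which gave 71 local candidates in RBP4 and 220 in VGAT. The lists were built anew and are not those of the study, which reports more local candidates in each line. Whether members are on the study's own lists was not tested, and the counts of members hold for the lists built here. No member was on the local lists built here in either line, where 0.417% of all genes were in RBP4 and 1.29% in VGAT. Of 75 members 44 were somatic candidates in RBP4 and 62 in VGAT, where 5.94% and 13.2% of all genes were, and 43 were in both. Both parts of a somatic candidate are set against the same WCH libraries. With TMM factors the somatic candidates were 24 in RBP4 and 40 in VGAT, and without RBP4 pool 2 there were 24 in RBP4. The shares of all genes on the lists under these settings are not given here.

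Other genes of mitochondrial translation are set beside the members, with 8.37% of all genes higher and 31.5% lower in RBP4 and 21% and 41.8% in VGAT from WCH to TRAP. Differences between the lists were not tested. Of 12 translation factors of mitochondria 1 rose and 2 fell from WCH to TRAP in RBP4, and 6 rose and 2 fell in VGAT, with medians of 0.03 and 0.37 (log2). Of 24 assembly factors 6 and 10 were higher and 1 lower in each line, with medians of 0.23 and 0.20. Of 17 mitochondrial aminoacyl-tRNA synthetases, which charge tRNAs in the organelle, 1 and 3 were higher and 2 lower in each line, with medians of -0.05 and 0.03. Nuclear genes of the respiratory chain were called higher for 60 of 96 in RBP4 and 87 of 96 in VGAT, with medians of 0.72 and 1.22. Cytoplasmic ribosomal protein genes, whose counts are uncertain because of pseudogenes, gave 7 of 80 and 50 of 81 higher and medians of 0.14 and 0.50.

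From TRAP to ST, where 29.1% and 34% of all genes were lower, 8 of 12 translation factors were lower in each line, 18 of 24 assembly factors, and 6 and 8 of 17 synthetases, with 2 and 3 synthetases higher. For the respiratory chain it was 70 and 83 of 96, with medians of -0.95 and -1.24. The cytoplasmic ribosomal protein genes split, with 13 higher and 19 lower in RBP4 and 16 higher and 24 lower in VGAT and medians of -0.19 and -0.05. The mitoribosomal medians of -1.19 and -1.38 were the lowest of these lists; the differences between lists were not tested.

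**Figure D5:**
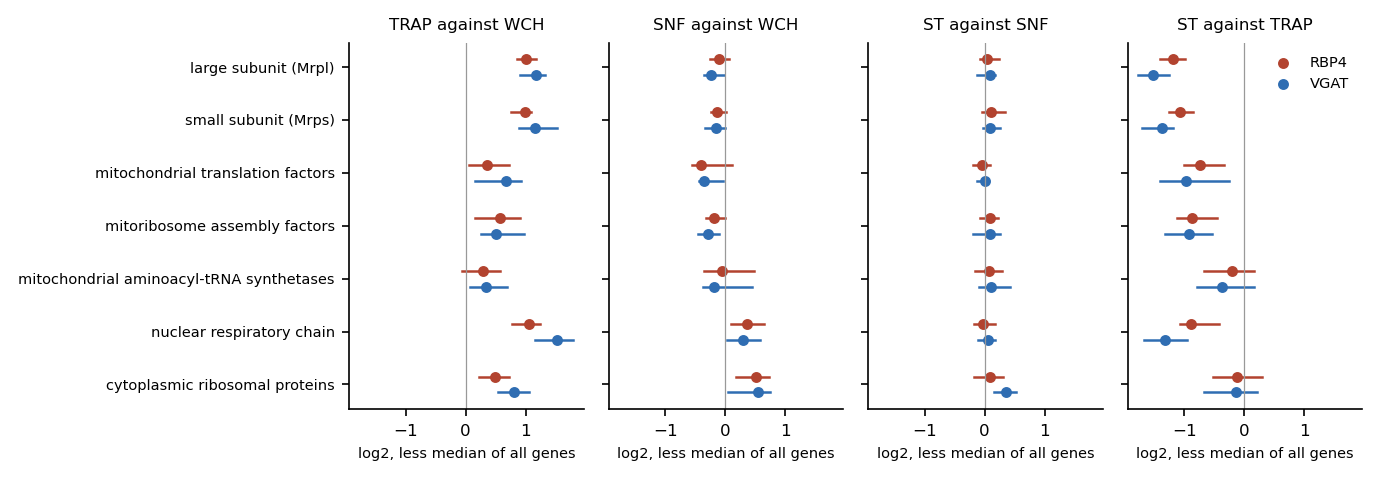
Median log2 fold change less the median of all genes tested (horizontal axis; points, with lines from the lower to the upper quartile) of 7 gene lists in 4 comparisons, RBP4 in red and VGAT in blue. Both subunits lie about 1 above the median gene in TRAP against WCH and over 1 below it in ST against TRAP, the respiratory chain lies near them, and cytoplasmic ribosomal proteins lie near 0 in ST against TRAP.

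The lists parted in SNF against WCH. Respiratory chain genes had medians of -0.13 and -0.22 there, with 10 higher in each line and 17 and 35 lower, and cytoplasmic ribosomal protein genes medians of 0.02 and 0.04. Against the median gene these lists stood 0.37 and 0.30, and 0.51 and 0.56, above it, while the mitoribosomal genes stood 0.12 and 0.21 below it.

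Many members start beside another gene. For 29 of 75 members (38.7%) a protein-coding gene on the opposite strand starts within 1 kb of the member's start, against 2014 of 14742 protein-coding genes tested (13.7%). The start of Mrps12 lies 148 bases from that of Sars2, the gene for the mitochondrial seryl-tRNA synthetase, which is thus within the promoter window printed above. Mrpl46 and Mrps11 are partners of each other and share 173 exon bases, and Mrpl43 starts beside Twnk, the mitochondrial helicase, Mrpl47 beside Ndufb5 of complex I, and Mrpl49 beside Fau, which encodes a cytoplasmic ribosomal protein.

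Partner genes that are not members are given for ST against TRAP, where 26% of all genes were higher and 29.1% lower in RBP4 and 37.5% and 34% in VGAT. Of 26 such genes that were tested, 4 were higher and 11 lower in ST than in TRAP in RBP4, and 5 higher and 11 lower in VGAT. Sars2 fell by 0.65 ± 0.23 and 0.58 ± 0.19 (log2) where Mrps12 fell by 2.08 and 2.18, and Twnk was at -0.21 ± 0.19 (adjusted p = 0.366) and -0.20 ± 0.13 (adjusted p = 0.187). Ndufb5 fell by 0.65 ± 0.21 and 1.10 ± 0.13. The library preparation did not keep strand, so that reads where such pairs overlap cannot be told apart by strand.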

How the data were processed

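RNA-seq of 40 mouse libraries was used: 8 groups, of 5 replicates each. Reads were aligned by the authors with STAR 2.0.4b (Ensembl assembly), and the deposited counts are their featureCounts 1.4.5 totals of unique alignments over each gene, without normalization. The deposited CPM values were made by the authors from the whole library total, and the deposited RPKM values by dividing these CPM values by gene length. Both served here as a check of the counts, from which they were recomputed with differences of at most 4.07e-10 and 4.91e-11. The strand setting of the counting is not given in the sources used here, and the library kit keeps no strand.

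Gene symbols came from GENCODE M21 (GRCm38), which named 40254 of 41388 features. From the counts, 37 genes of the mitochondrial chromosome and 353 rRNA and tRNA genes were left out, and the remaining totals served as library sizes without a further factor. Genes that reached 0.5 cpm in no fewer than 3 libraries were tested with edgeR 4.0.16 (quasi-likelihood test, R 4.3.3), with Benjamini-Hochberg adjustment over all genes tested and calls at an adjusted p of at most 0.05. Comparisons within a line were fitted on its 20 libraries, those between lines on the 30 WCH, TRAP and ST libraries, and those that involve SNF between lines on 40. The filter counted all libraries of the line within a line. Between lines it counted only TRAP and ST libraries, also where WCH or SNF was compared. Depth limits genes of low count most, as Mrps34 and Mrpl23. P-values measure the spread between pools.

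The members and gene lists were chosen with earlier results of these data known. Genes named in the text were taken from a list by rule. It held the 4 members in each direction with the smallest unadjusted p among those called in a comparison. With fewer than 2 called, it held the 2 with the smallest p. It also held the 3 highest and 3 lowest by level, and always the Mrps18 genes, Mrpl10, Mrpl11, Mrpl12, Mrpl34, Mrpl36, Mrps36, Mrpl58, Dap3, Ptcd3, Aurkaip1, Gadd45gip1 and Chchd1. Others, such as Mrpl24, Mrpl48 and partner genes, were named after their values were seen. Not every gene of the list is named in the results. Mrpl15, Mrpl19 and Mrpl45, listed for SNF against WCH, are among those left out there. Markers stand for astrocytes (6), oligodendrocytes (6), microglia (6), endothelial cells (6), glutamatergic and layer 5 neurons (6), GABAergic neurons (7) and striatal neurons (5). Promoter windows came from RefSeq (GRCm38.p6), and protein sequences were not used here.

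Within a line, the study's methods say that the 4 libraries of a replicate come from 1 pool, and the mean correlation of deviations from the group means was -0.0177 to 0.483 between fractions of the same pool and -0.117 to -0.00051 between pools. Between lines equal numbers pair no animals. No libraries held identical values. Alternatives were TMM factors, DESeq2 1.42.0, edgeR's likelihood ratio test, no filter, a filter at 1 cpm in 5 libraries, no genes left out, all 40 libraries together, the replicate number as a block, and leaving out each pool. Fits without RBP4 ST 4, without RBP4 ST 5 and without pool 3 of both lines were chosen after seeing the data. The fits were also run on simulated data, and that run is not evidence for the calls given here.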

Additional observations from a re-analysis of the deposited data

Results flagged for a closer look

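Among the members shown by library and the summed level, single libraries stood apart from the other 4 of their group by Dixon's test. In RBP4, these were Mrpl17 in WCH 4 at 52.5 cpm, Mrps18c in TRAP 5 at 107 cpm, Mrps17 in ST 5 at 77.7 cpm and the summed level in ST 5 at 3516 cpm. In VGAT, they were Mrps18a in WCH 1 at 94.3 cpm, Mrps12 in SNF 1 at 14.1 cpm, Mrpl52 in SNF 3 at 27.8 cpm, Mrps30 in SNF 3 at 14.7 cpm, Mrps22 in ST 2 at 11.8 cpm and Mrps26 in ST 5 at 20.8 cpm. Over all members and groups, 39 of 600 tests stood out (6.5%), where chance alone gives about 1 in 20, and RBP4 ST 5 held 11 of them, VGAT WCH 1 6 and VGAT SNF 3 4. RBP4 ST 5 was the highest RBP4 ST library for 50 of 75 members and the lowest for 0.

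The step from TRAP to ST differed between the lines by the interaction test for Mrps11 (0.72 on the log2 scale, RBP4 less VGAT) and Mrpl17 (0.53). The fall was the smaller in RBP4 for both genes.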

How the results depend on the processing

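For the steps from WCH to TRAP and from TRAP to ST the members' median kept its sign in all alternatives run, with counts of calls within 1.5 times the main ones, except that without RBP4 pool 2 33 members were called higher in RBP4 TRAP (33 to 57 over pools left out). Counts that involve SNF moved with the scaling: members called between SNF and WCH were 11 with TMM factors and 8 with DESeq2 in RBP4 (49 in the main fit; 27, without pool 1, to 54 over pools left out), and 36 and 31 in VGAT (64). Between ST and SNF, RBP4 gave 1 with TMM, 2 with DESeq2, 6 with no genes left out, 3 with all 40 libraries, 2 with the pool as a replicate block, 1 without RBP4 ST 5 and 0 to 1 over pools left out (1 without pool 5; main 0). VGAT gave 5 with TMM, 39 with no genes left out and 3, without pool 2, to 11 over pools left out (main 9). Somatic candidates were 24 in RBP4 and 40 in VGAT with TMM (main 44 and 62), and 24, without pool 2, to 49 over RBP4 pools left out. The interaction from TRAP to ST (main 2) gave 4 with DESeq2, 1 each with no filter, with no genes left out, without RBP4 ST 4 and without RBP4 ST 5, and 1 to 4 over pools left out. That from WCH to TRAP (main 0) gave 1 each with the filter at 1 cpm in 5 libraries, with all 40 libraries and without RBP4 ST 5, and 0 to 1 over pools left out (1 without RBP4 pool 3 or 5). The mean summed level was 1876 cpm in RBP4 SNF and 1872 cpm in VGAT SNF with no genes left out, and with TMM that of WCH was 2871 cpm in RBP4 and 3169 cpm in VGAT. The counts in this paragraph are of members only, and the shares of all genes under each alternative are not given beside them. Beyond what these settings change by construction (library sizes, libraries and genes tested), the cause was not tested.

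The replicate block was a true pairing within a line, and beyond RBP4 ST against SNF the call it changed among named members was that of Mrpl32 in VGAT ST against SNF (-0.35, adjusted p = 0.0477). Members called under it within a line were 59 and 71 from WCH to TRAP, 49 and 66 from WCH to SNF, and 72 and 74 from TRAP to ST, in RBP4 and VGAT. Between lines numbers pair no animals, although mean correlations of deviations were 0.0505 to 0.229 for equal numbers against -0.0506 to -0.0115 for unequal ones (some single pairs of equal number were below 0) and replicate 3 held the highest mitochondrial share in SNF and ST of both lines. The block there gave 1 call for the interaction from TRAP to ST (Mrpl17 at adjusted p = 0.0571) and 1 for that from WCH to TRAP (Mrps6 at adjusted p = 0.0268).

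Over 122 results of named genes and 1906 values under alternatives, 1784 kept direction and side of the threshold, 60 lost the call, 46 gained it and 16 turned sign, of which Mrpl12 alone had been called. These were, as log2 changes, Mrpl24 from WCH to TRAP in RBP4 (TMM 0.11, DESeq2 0.10) and in VGAT (TMM 0.14, DESeq2 0.12, and -0.18 to 0.026 over pools left out, the highest without pool 1). From WCH to SNF in RBP4 they were Mrps18a (TMM 0.078, DESeq2 0.17), Mrps18b (TMM 0.10, DESeq2 0.19), Mrpl12 (DESeq2 0.0065) and Mrpl34 (no genes left out -0.16, without pool 1 -0.0018). In VGAT they were Mrpl34 (TMM 0.018, DESeq2 0.11) and Mrps36 (TMM 0.13, DESeq2 0.23). Depth limits Mrps34 and Mrpl23 most.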
